A study of Mus musculus with 10 samples.

Results

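The constitutive proteasome subunits analysed here are the 33 genes of 34745 in the deposited table whose symbols begin with Psma, Psmb, Psmc or Psmd followed by a number, leaving out Psmb5, Psmb6 and Psmb7 and the genes Psmb8, Psmb9 and Psmb10 that can replace them. They comprise 13 genes of the 20S core particle (8 of its alpha rings and 5 of its beta rings), 17 genes of the 19S cap (6 base ATPases, 3 other base subunits and 8 lid subunits) and 3 factors that help to assemble the cap, Psmd5, Psmd9 and Psmd10. The rule uses symbols and no measured value.

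RNA sequencing compared Hepa1-6 cells, a mouse hepatoma line labelled wild type, after 48 h of co-culture with activated CD8+ T cells (5 libraries, labelled CTL attack) with untreated Hepa1-6 cells (5 libraries). The T cells came from spleens of male C57/BL6 mice aged 6-8 weeks and had spent 5 days under anti-CD3 and anti-CD28 antibody, diluted 1 in 2000. The plates were washed with PBS, to remove what was not attached, before RNA was harvested. Hepa1-6 cells kept with unactivated T cells were not analysed here.

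The 26S proteasome degrades proteins that carry chains of ubiquitin. The 19S cap binds, unfolds and feeds them through a gate in the alpha rings into the 20S core, where the beta rings cut them. Only 3 kinds of beta subunit cut peptide bonds in the constitutive core, and interferon-induced immunosubunits can take their places, which alters the peptides available for presentation to CD8+ T cells; most genes described here code for the parts that both kinds of proteasome share. Cells keep the subunits in step largely through Nfe2l1, a transcription factor that becomes active when proteasome activity is low.

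Library totals lay between 12922263 and 17100662 counts and overlapped between the groups (exact two-sided permutation test, p = 0.468). Of the 8 hepatocyte and hepatoma markers, Krt8, Krt18 and Afp exceeded 1 CPM (counts relative to the TMM-scaled library total) in both groups, while Alb, Apoa1, Ttr and Hnf4a were near 0 in both. Krt8 and Afp were called lower after co-culture (log2 fold change -0.25 and -0.36, edgeR adjusted p = 0.0079 and 0.0040), and Trf had 3.69 ± 0.892 CPM in co-culture libraries but 2 counts in all untreated libraries. None of the 10 T cell markers reached 1 CPM and 5 of them had 0 counts in every library. Of 9 macrophage markers 5 averaged at least 1 CPM over the 10 libraries, and 6 of 8 tested were called higher, against 17.4% of all genes tested. Lyz2 had 18.2 ± 2.15 CPM in co-culture and 0.931 ± 0.250 CPM in untreated libraries, Adgre1 3.66 ± 0.482 CPM in co-culture and 0.162 ± 0.102 CPM in untreated libraries (SD, n = 5 each), and Tyrobp 84 counts in co-culture and 0 in untreated libraries. Their sum, 93.7 to 112 CPM in co-culture and 58.6 to 65.2 CPM in untreated libraries, rests mostly on Cd14 and on Cd68, which had 25.1 CPM in both groups. The 6 called macrophage markers were higher in every co-culture library than in any untreated library, and so moved with the groups. Cd68 and Mrc1 were not called (edgeR adjusted p = 0.968 and 0.0913). The part of these markers in the subunit genes' values was not tested. In bulk RNA, fewer cells of a type and less RNA per cell cannot be told apart.

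Most constitutive subunit genes were measured at close to the same level with and without T cells. In the 20S core 5 genes fell after co-culture (Psmb3, Psmb1, Psma5, Psma2 and Psma4) and in the 19S cap 2 genes rose (Psmd2 and Psmc4). The differences were small, with fold changes between 0.778 and 1.157, and no subunit gene reached 1.5-fold in either direction. Of the 33 genes, 31 had enough counts to be tested, by edgeR's quasi-likelihood test at a Benjamini-Hochberg adjusted p under 0.05 over 12666 genes. Called higher were 2 of 31, against 17.4% of all genes tested. Called lower were 5 of 31, against 16.1% of all genes tested. In either direction 7 of 31, or 22.6%, were called, against 33.5% of all genes tested. With library totals alone, without TMM scaling, 5 were higher and 3 lower. The median log2 fold change of the 31 was -0.03, beside 0.01 over all genes tested. The plot of all 31 log2 fold changes shows the estimates grouped by position in the particle.

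**Figure D1:**
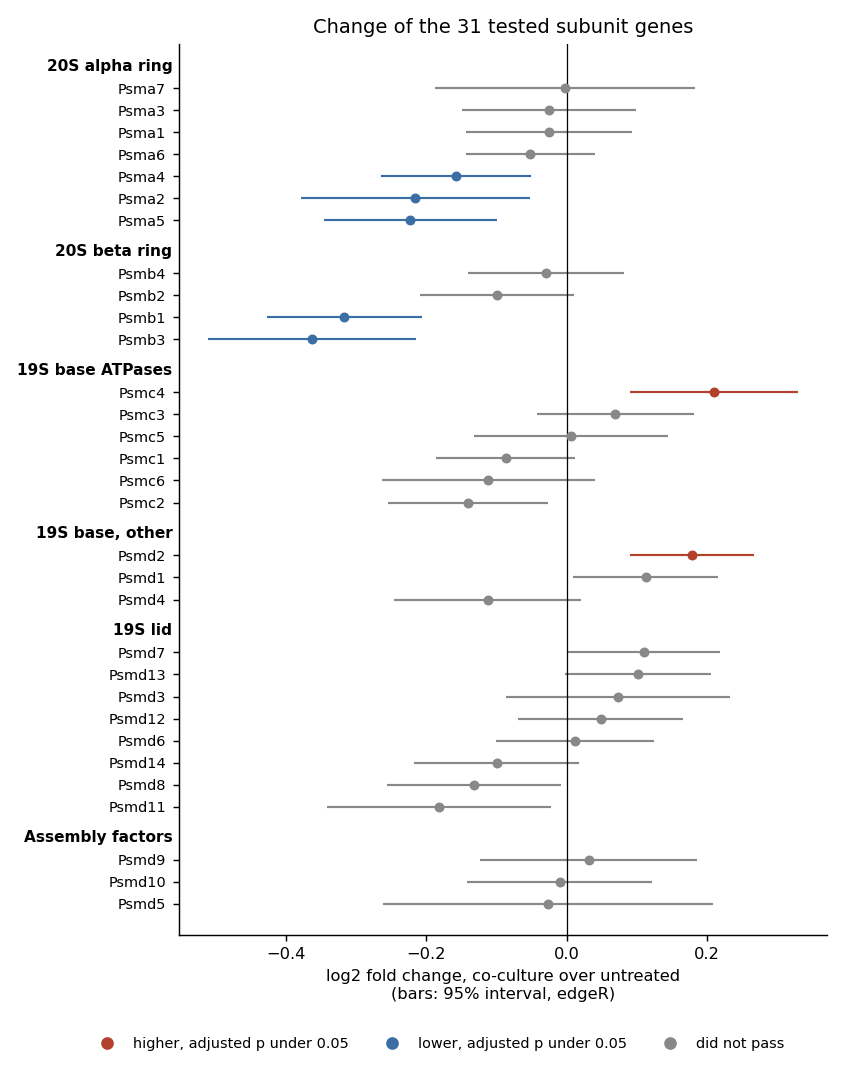
The log2 fold change of each of the 31 tested subunit genes, co-culture over untreated, is plotted with its 95% interval from edgeR, grouped by place in the particle; colours mark the genes that passed an adjusted p of 0.05. All 11 of the 20S estimates lie at or left of 0 with TMM scaling (7 of 11 with library totals alone, and 6 of 11 with an offset for transcript length), while the 19S estimates fall on both sides, 10 right and 7 left.

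Core and cap genes were counted apart, beside 17.4% of all genes tested called higher and 16.1% called lower. With TMM scaling all 11 tested 20S genes had a log2 fold change below 0 (7 of 11 with library totals alone, and 6 of 11 with an offset for transcript length), with a median of -0.10; 5 were called lower and 0 higher. Of the 17 genes of the 19S cap, 10 lay above 0 and 7 below, with a median of 0.01; 2 were called higher and 0 lower. At an unadjusted p under 0.05, edgeR had 0 of the 20S genes higher and 3 of the 19S genes lower, and DESeq2 called 0 and 1. With library totals alone the medians were -0.07 for 20S and 0.04 for 19S genes, beside 0.04 over all genes. The counts of cap genes leave out Shfm1, which lies outside the symbol rule and was called lower. The split between core and cap also depends on offsets for transcript length and GC content, described with the length values: with both, 3 of the 20S genes were lower and 0 higher, 4 of the 19S genes lower and 4 higher, and the 20S median was 0.00.

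The beta rings carried the largest differences. Psmb3, a beta ring subunit without proteolytic activity (chr11:97703399-97713500, mm10, plus strand), had 212, 256, 219, 196 and 208 TMM-scaled CPM in co-culture libraries 1 to 5, against 259, 270.4, 293, 301 and 279.5 CPM in untreated libraries 1 to 5. Every co-culture library lay below every untreated one, although co-culture library 2 came within a few CPM of untreated library 1. The means were 218 ± 22.9 CPM in co-culture and 281 ± 16.8 CPM in untreated libraries (SD, n = 5 each), a log2 fold change of -0.36 (edgeR adjusted p = 0.0012, SE 0.0685). Psmb1, another non-catalytic beta subunit (chr17:15475721-15498276, minus strand), had 408, 464, 427, 394 and 391 CPM in co-culture libraries and 507, 507, 518, 547 and 518 CPM in untreated libraries. The groups were again apart, and untreated library 4 was the highest of all. Its means of 417 ± 29.8 CPM in co-culture and 519 ± 16.5 CPM in untreated libraries (SD, n = 5 each) gave a log2 fold change of -0.32 (edgeR adjusted p = 0.0004, SE 0.0512). The other 2 tested beta subunits passed no test: Psmb2 had a log2 fold change of -0.10 (edgeR adjusted p = 0.155) and Psmb4 one of -0.03, also uncalled.

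The alpha rings, which form the gate of the core, had 3 of 7 tested genes lower and 0 higher, with a median log2 fold change of -0.05. Over all genes tested, 16.1% were called lower and 17.4% higher. Psma5 (chr3:108256926-108279974, plus strand) had 124, 129, 134, 114 and 109 CPM in co-culture libraries, against 135, 145, 144, 142 and 146 CPM in untreated libraries. The highest co-culture library lay just below the lowest untreated one. Means were 122 ± 10.3 CPM in co-culture and 142 ± 4.13 CPM in untreated libraries (SD, n = 5 each), with a log2 fold change of -0.22 (edgeR adjusted p = 0.0089, SE 0.0572). Part of the Psma5 count is uncertain, because the table also lists Gm8394, whose transcript matches it over 952 bases at 98.6% identity and received 7030 counts in co-culture libraries and 8895 in untreated ones, beside 9107 in co-culture and 10865 in untreated libraries for Psma5. Gm8394, named after its values were seen, averaged 93.4 ± 10.8 CPM in co-culture and 117 ± 6.66 CPM in untreated libraries (SD, n = 5 each; log2 fold change -0.32, edgeR adjusted p = 0.0047), and adding its counts to Psma5 moved the Psma5 log2 fold change to -0.27 (edgeR adjusted p = 0.0013).

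Psma2 (chr13:14613242-14625671, plus strand) had 204, 196, 191, 198 and 153 CPM in co-culture libraries and 208, 237, 226, 226 and 198 CPM in untreated libraries. The groups overlapped, and co-culture library 5 stood well below the other co-culture libraries. The log2 fold change was -0.22 (edgeR adjusted p = 0.0428, SE 0.0759), and without co-culture library 5 it was -0.15 with an adjusted p of 0.0688. Psma4 (chr9:54950790-54958030, plus strand), whose library values are given after they were seen, had 134, 135, 129, 138 and 123 CPM in co-culture libraries, against 141, 157, 148, 152 and 138 CPM in untreated libraries. Its groups touched at 138 CPM. The log2 fold change was -0.16 (edgeR adjusted p = 0.0253, SE 0.0495), and the adjusted p was 0.0654 without co-culture library 5, 0.0631 without untreated library 2 and 0.0557 without untreated library 4. Psma2 also lost its call without co-culture library 3 (adjusted p = 0.0610) and without untreated library 2 (0.0997), 3 (0.0804) or 4 (0.0775).

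The other 4 alpha ring genes gave estimates near 0: Psma7 a log2 fold change of 0.00, Psma3 and Psma1 of -0.02 and -0.03, and Psma6 of -0.05, with edgeR adjusted p between 0.387 and 0.987. Psma7 was the most scattered of the rings, with 484 to 578 CPM in co-culture libraries, against 401 to 564 CPM in untreated libraries, where untreated library 2 was the low one. Psma6 was measured tightly, and its 95% interval ran from -0.14 to 0.04.

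**Figure D2:**
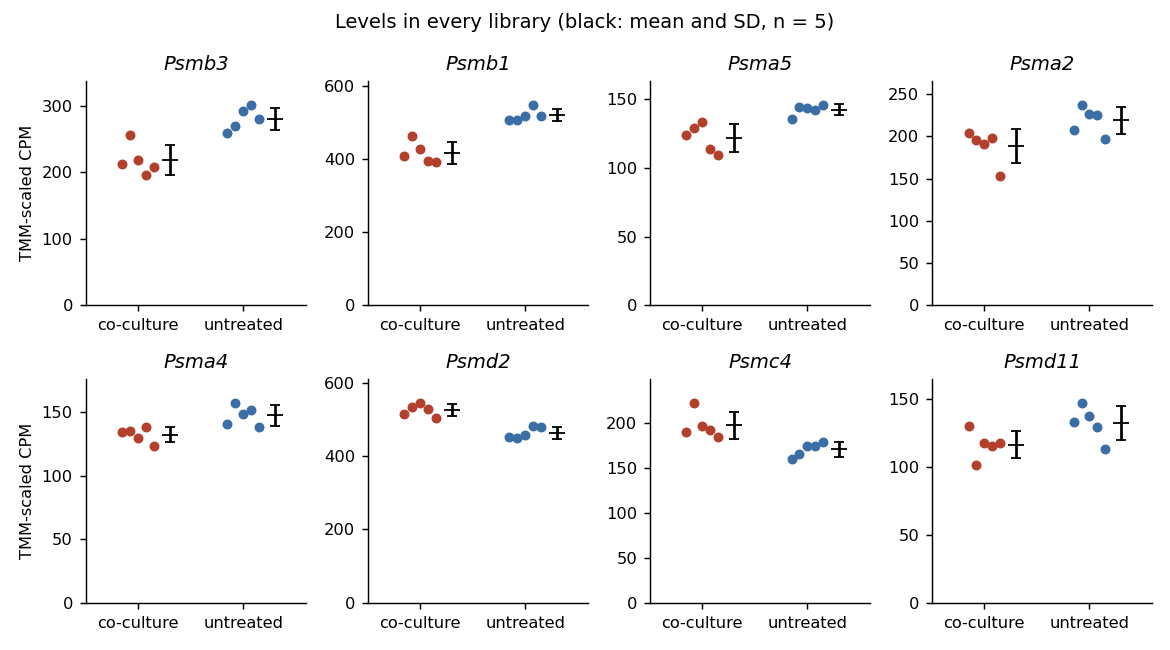
TMM-scaled CPM of 8 subunit genes are plotted for every library, co-culture left and untreated right in each panel, with the mean and SD of 5 libraries in black. Psmb3, Psmb1 and Psma5 are lower and Psmd2 and Psmc4 higher in all 5 co-culture libraries than in any untreated library, while Psma2, Psma4 and Psmd11 overlap.

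In the 19S base, Psmd2 and Psmc4 rose. Psmd2, the scaffold on which ubiquitin-binding shuttle proteins and the deubiquitinase Usp14 dock (chr16:20651652-20663414, plus strand), had 514, 534, 545, 527 and 502 CPM in co-culture libraries, against 451, 449, 456, 483 and 478 CPM in untreated libraries. All co-culture libraries exceeded all untreated ones. Means of 524 ± 16.8 CPM in co-culture and 463 ± 15.8 CPM in untreated libraries (SD, n = 5 each) gave a log2 fold change of 0.18 (edgeR adjusted p = 0.0044, SE 0.0407). Psmc4, an ATPase of the ring that unfolds substrates (chr7:28041707-28050101, minus strand), had 189.5, 222, 197, 192 and 185 CPM in co-culture libraries and 159.5, 165, 174, 175 and 179 CPM in untreated libraries. The groups did not overlap, and co-culture library 2 was the highest. Its means of 197 ± 14.8 CPM in co-culture and 170.5 ± 7.99 CPM in untreated libraries (SD, n = 5 each) gave a log2 fold change of 0.21 (edgeR adjusted p = 0.0106, SE 0.0555).

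The stretches of DNA around the starts of 4 called genes are shown because proteasome subunit genes are known to be driven by shared transcription factors and because these 4 did not move in one direction. They come from RefSeq on GRCm38.p6, from 250 bases before to 50 bases after the start, written along the gene's strand, for Psmb3 (chr11:97703184-97703483, plus), Psma5 (chr3:108256676-108256975, plus), Psmd2 (chr16:20651402-20651701, plus) and Psmc4 (chr7:28050043-28050342, minus). Capitals mark matches to any of 3 motifs searched on both strands: CCAAT, bound by NF-Y; TGACNNNGC, the core of the antioxidant response element used by Nfe2l1 and Nfe2l2; and the palindromic motif of nuclear respiratory factor 1.
Psmb3: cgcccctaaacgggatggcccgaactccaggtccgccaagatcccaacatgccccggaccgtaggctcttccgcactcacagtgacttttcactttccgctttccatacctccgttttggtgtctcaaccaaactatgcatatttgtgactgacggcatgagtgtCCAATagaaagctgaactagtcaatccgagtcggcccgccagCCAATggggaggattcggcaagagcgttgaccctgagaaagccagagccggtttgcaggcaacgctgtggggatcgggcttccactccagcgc
Psma5: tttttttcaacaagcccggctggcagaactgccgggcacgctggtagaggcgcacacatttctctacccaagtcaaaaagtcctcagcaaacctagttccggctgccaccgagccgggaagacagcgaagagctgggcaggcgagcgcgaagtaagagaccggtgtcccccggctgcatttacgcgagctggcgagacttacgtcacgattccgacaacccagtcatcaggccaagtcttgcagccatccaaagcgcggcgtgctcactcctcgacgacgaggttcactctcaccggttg
Psmd2: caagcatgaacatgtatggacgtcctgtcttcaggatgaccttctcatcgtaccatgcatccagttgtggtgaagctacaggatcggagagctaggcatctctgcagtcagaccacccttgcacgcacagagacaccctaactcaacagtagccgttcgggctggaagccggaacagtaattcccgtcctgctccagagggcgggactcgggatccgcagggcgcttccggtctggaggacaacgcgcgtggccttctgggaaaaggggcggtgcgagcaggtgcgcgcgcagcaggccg
Psmc4: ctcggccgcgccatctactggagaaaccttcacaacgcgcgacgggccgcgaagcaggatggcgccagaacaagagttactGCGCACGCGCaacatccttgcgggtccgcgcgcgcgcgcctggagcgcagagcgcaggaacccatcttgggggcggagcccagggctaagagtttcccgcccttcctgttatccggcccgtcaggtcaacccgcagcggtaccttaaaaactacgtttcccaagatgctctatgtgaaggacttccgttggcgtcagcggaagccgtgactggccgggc
Psmb3 held CCAAT at positions -85 and -43 from the start, Psmc4 held the nuclear respiratory factor 1 motif at -169, and Psma5 and Psmd2 held none of the 3 in this window. A window was found for 25 of the 33 genes, among them the untested 20S gene Psmb11 but not the called 20S gene Psmb1. CCAAT was in 48% of these windows, in 70% of 10 windows of 20S genes and 28.6% of 14 windows of 19S genes, beside 37.4% of all 32851 windows. The nuclear respiratory factor 1 motif was in 24% of the subunit genes' windows, 6 of 25, beside 4.6% of all windows. TGACNNNGC was in 8%, beside 12.4% of all. Matches occurred in genes that were called and in genes that were not, and they describe letters in the window, not binding.

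The remaining base genes passed no test. Psmd1, the other large base scaffold, had a log2 fold change of 0.11 (edgeR adjusted p = 0.0882), and Psmd4, a ubiquitin receptor, had -0.11 (edgeR adjusted p = 0.183). The other 5 ATPases spread over both sides of 0: Psmc3 at 0.07, Psmc5 at 0.01, Psmc1 at -0.09, Psmc6 at -0.11 and Psmc2 at -0.14 log2. Psmc2 came closest to a call (edgeR adjusted p = 0.0558), with 168 to 180.4 CPM in co-culture libraries and 169 to 205 CPM in untreated libraries. Without co-culture library 2, Psmc1, Psmc2 and Psmd4 passed as lower (adjusted p = 0.0381, 0.0466 and 0.0409), and without untreated library 5 Psmc2 did (0.0054). Psmc3 overlaps the locus of Slc39a13 on the opposite strand, which received 10155 counts beside 37623 for Psmc3. Without knowledge of strand in the counting, reads from the shared stretch cannot be told apart. How much of each transcript lies in that stretch was not measured.

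By edgeR 0 of 8 lid genes were called in either direction; 1 was higher and 2 lower at an unadjusted p under 0.05, and DESeq2 called 0. The median log2 fold change of the lid was 0.03. Shfm1, whose symbol lies outside the rule, was not counted with the lid and is given below. Over all genes tested, edgeR called 33.5% in either direction. Psmd11, which clamps the lid to the core, had 129.8, 102, 118, 115 and 118 CPM in co-culture libraries, against 133, 147, 138, 129 and 113 CPM in untreated libraries. The groups overlapped, through co-culture library 1 and untreated libraries 4 and 5, and the log2 fold change of -0.18 had an edgeR adjusted p of 0.0761; without co-culture library 1 or untreated library 5 it was -0.23 (adjusted p = 0.0368) or -0.24 (adjusted p = 0.0166). Psmd14, the deubiquitinase that removes ubiquitin from substrates, and its partner Psmd7 had log2 fold changes of -0.10 (edgeR adjusted p = 0.182) and 0.11 (edgeR adjusted p = 0.114). Among the lid's structural subunits, Psmd13, Psmd3, Psmd12 and Psmd6 lay between 0.01 and 0.10, and Psmd8 at -0.13, which passed without co-culture library 2 (adjusted p = 0.0274) or untreated library 2 (0.0433). Psmd13 overlaps Sirt3 on the opposite strand, which received 2066 counts beside 19300.

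Of the 3 assembly factors 0 were called by edgeR, 0 at an unadjusted p under 0.05 and 0 by DESeq2. Psmd9 had 62.6, 66.3, 52.1, 56.9 and 56.4 CPM in co-culture libraries, against 55.5, 52.1, 58.5, 60.7 and 61.5 CPM in untreated libraries, a full overlap (log2 fold change 0.03, edgeR adjusted p = 0.781). Psmd10 and Psmd5 had log2 fold changes of -0.01 and -0.03 (edgeR adjusted p = 0.919 and 0.880). Psmd5 varied most between libraries of one group, with a residual SD of 0.205 log2, so its 95% interval ran from -0.26 to 0.21.

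Taking the 24 uncalled genes as a set of measurements, their log2 fold changes lay between -0.18 and 0.11, and their 95% intervals reached from -0.34 to 0.23. A change as large as that of Psmb3 or larger was seen in 21.3% of all genes tested, called or not. Genes of like count were not compared. Of the 24, 5 had an unadjusted p under 0.05. Co-culture libraries lay wholly above untreated ones for 2 of 31 genes (12.6% of all genes tested) and wholly below for 3 of 31 (11.1% of all genes tested), and the other 26 overlapped.

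The 2 remaining genes were too low to test. Psma8, an alpha subunit of the testis, had 1 count in all co-culture libraries and 0 in untreated libraries, and Psmb11, a beta subunit of the thymic cortex, had 0 in co-culture libraries and 3 in untreated libraries. A summed count of 3, the limit that a count of 0 allows, corresponds to 0.0405 CPM over the co-culture libraries and 0.0388 CPM over the untreated libraries.

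Levels per length spanned a wide range. On the deposited FPKM scale (fragment counts per unit of gene length and of library total), Psmb1 was highest at 406 ± 23.4 in co-culture libraries and 495 ± 11.8 in untreated libraries, followed by Psmb4 at 217 and 216 and Psma2 at 202 and 229 FPKM in co-culture and untreated libraries. Psmd9 was lowest at 7.45 and 7.13 FPKM, next to Psmd5 at 8.82 and 8.77 and Psmd11 at 11.4 and 12.6 FPKM. Neighbours in the order mostly overlapped in their ranges over libraries, whereas Psmb1 stood clear of Psmb4. The FPKM correspond to 1 fixed length per gene, from 944 bases for Psma2 to 10333 bases for Psmd11, where the principal transcripts of these genes in GENCODE M21 run from 766 to 4397 bases. Dividing CPM by the principal transcript instead put Psma7 in the first rank in co-culture libraries, up from the sixth, and Psma2 in rank 24, from the third; the ranks under both lengths had a Spearman correlation of 0.715 across the 31 genes, which share the same libraries. The order of single genes in FPKM thus depends on the length used. A fixed length per gene cancels in changes between groups, while the trend of the changes with transcript length is given below.

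**Figure D3:**
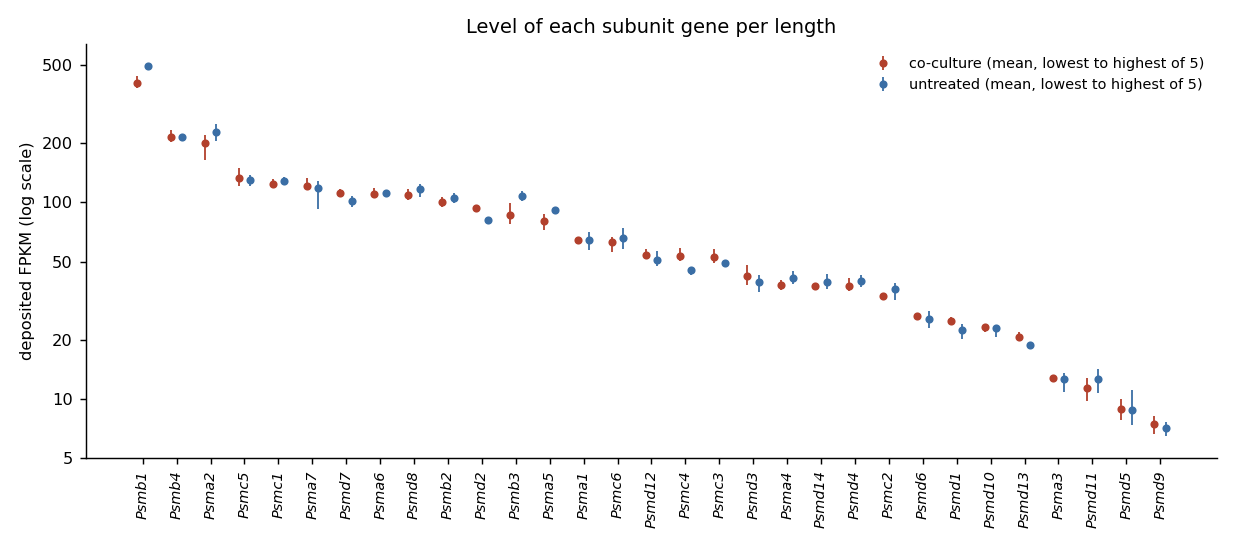
Deposited FPKM of the 31 tested subunit genes are plotted on a log axis in falling order of the co-culture mean, with the range of the 5 libraries of each group, co-culture left of untreated for each gene. Psmb1 is highest in both groups, and the ranges of co-culture and untreated libraries overlap for most genes.

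Summed over the 33 genes, the share of all counts was 0.652% ± 0.0192 in co-culture libraries and 0.659% ± 0.0155 in untreated libraries (SD, n = 5 each), and the groups overlapped. Splitting this sum, a step chosen after the values were seen and given without a test, the 20S genes together had 2786 ± 157 CPM in co-culture libraries and 3053 ± 122 CPM in untreated libraries. The 19S genes together had 3491 ± 120 CPM in co-culture libraries and 3438 ± 87.0 CPM in untreated libraries. The ratio of the 20S to the 19S sum, which no library scaling can alter, was 0.816, 0.826, 0.789, 0.785 and 0.771 in co-culture libraries, against 0.870, 0.865, 0.906, 0.896 and 0.901 in untreated libraries. Every co-culture library lay below every untreated one. The ratio was not computed with the offsets for transcript length and GC content, which act gene by gene. Without Psmb1 and Psmb3, the pair with the largest differences, the ratio was 0.616 (0.594 to 0.634) in co-culture libraries and 0.655 (0.636 to 0.674) in untreated libraries. Without all 7 called genes the ratio was 0.616 (0.602 to 0.635) in co-culture libraries and 0.622 (0.583 to 0.648) in untreated libraries. The groups then overlapped. These 7 were picked by their differences in the same libraries, so leaving them out narrows the gap by construction, and no conclusion is drawn from it.

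**Figure D4:**
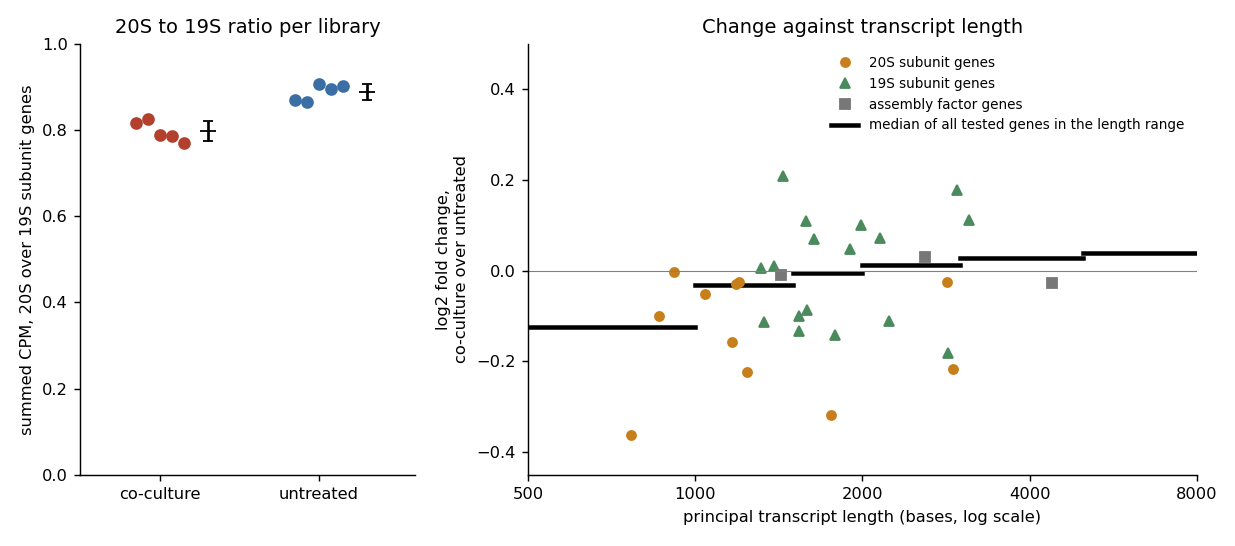
Left, the ratio of summed CPM of 20S genes to 19S genes in each library, co-culture left and untreated right, with mean and SD of 5 libraries; right, the log2 fold change of each tested subunit gene against the length of its principal transcript (log axis), with black bars for the median of all tested genes per length range, the first and last cut at the ends of the axis. The co-culture ratios lie between 0.771 and 0.826 and the untreated ratios between 0.865 and 0.906, and the median of all genes rises with length.

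Transcript length moved with the comparison across the whole table. Among the 960 tested genes with a principal transcript of up to 1000 bases the median log2 fold change was -0.13, with 5.63% called higher and 26.7% called lower, and above 5000 bases it was 0.04, with 21.8% higher and 12.4% lower. The 20S genes are short, with a median of 1183 bases, beside 1636 for the 19S genes and 2932 for all genes tested. With a length offset in the edgeR fit, added after the trend was seen, the 20S median was -0.05 with 6 of 11 genes below 0, and the 19S median 0.05; with a further offset on GC content they were 0.00 and 0.03. The single calls of Psmb3, Psmb1, Psma5, Psmd2 and Psmc4 remained under both offsets, at log2 fold changes of -0.23, -0.31, -0.17, 0.15 and 0.24 with the length offset. Psma4 lost its call under the length offset (log2 fold change -0.10, adjusted p = 0.163). Psma2 kept its call there (-0.24, adjusted p = 0.0224) and lost it under the pair of offsets at a similar log2 fold change (-0.20, adjusted p = 0.103). In the cap, Psmd11 was called lower (-0.21, adjusted p = 0.0434) and Psmd7 higher (0.13, adjusted p = 0.0398) with the length offset. Under the pair of offsets Psmc2, Psmd4, Psmd8 and Psmd11 were called lower (adjusted p = 0.0382, 0.0177, 0.0095 and 0.0280), and Psmd1 and Psmd7 joined Psmd2 and Psmc4 as higher (0.0312 and 0.0209).

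Within groups the genes shared part of their deviations from library to library. Across the 10 libraries, deviations from the group mean correlated on average at 0.199 between pairs of subunit genes, 0.318 among 20S genes, 0.143 among 19S genes and 0.228 between a 20S and a 19S gene, beside 0.000564 over all genes tested; these describe the libraries, whose genes share depth and preparation. TMM scaling holds the average over all genes near 0, and no set of genes of like level or length was compared. Co-culture library 2 had the highest median deviation of the 20S genes (0.06 log2) and co-culture library 5 the lowest (-0.09 log2). The steadiest gene was Psmd2, with a residual SD of 0.0476 log2.

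Around the constitutive subunits, other proteasome genes were counted by list. Over all genes tested, 17.4% were called higher, 16.1% lower and 33.5% in either direction. The 6 catalytic and immunosubunit genes had 3 called lower and 0 higher (median log2 fold change -0.26): Psmb9 averaged 43.3 ± 2.56 CPM in co-culture and 65.8 ± 4.76 CPM in untreated libraries, and Psmb8 165 ± 10.5 CPM in co-culture and 226 ± 9.27 CPM in untreated libraries (SD, n = 5 each). Their log2 fold changes were -0.60 and -0.46, and that of Psmb10 was -0.29, while Psmb5, Psmb7 and Psmb6 passed no test at -0.24, -0.11 and -0.07. Without co-culture library 2, Psmb5 and Psmb7 passed as lower (adjusted p = 0.0233 and 0.0187), as did Psmb5 without untreated library 1 (0.0069). Psmb5 passed in 6 of 23 alternatives, 2 of them with a library left out. All 3 called immunosubunit genes were thus lower, as were the 2 called beta ring genes among the constitutive subunits. Of 5 assembly factors of the core, 1 fell and 0 rose (median 0.00). It was Pomp, which helps to close the core particle, with 79.7 ± 7.43 CPM in co-culture libraries and 97.2 ± 5.92 CPM in untreated libraries (log2 fold change -0.29, edgeR adjusted p = 0.0050). Psmg1 had a log2 fold change of 0.20 (edgeR adjusted p = 0.0911, or 0.0342 without co-culture library 5). Psmg1 passed in 6 of 23 alternatives, 1 of them with a library left out.

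Of 5 activators and inhibitors that bind the ends of the core, 1 rose and 2 fell (median log2 fold change -0.12). Of all genes tested, 17.4% were called higher and 16.1% lower. Psme3, the nuclear activator, averaged 192 ± 4.03 CPM in co-culture libraries and 169 ± 11.2 CPM in untreated libraries (log2 fold change 0.19, edgeR adjusted p = 0.0094). Psme2, one chain of the interferon-induced activator, averaged 71.1 ± 7.90 CPM in co-culture and 83.4 ± 4.12 CPM in untreated libraries (log2 fold change -0.23, edgeR adjusted p = 0.0222), and its adjusted p was 0.158 with the length offset and between 0.0504 and 0.0563 without co-culture library 4 or 5 or untreated library 2 or 3. Of 9 other proteasome-bound proteins, 1 rose and 3 fell (median -0.13). Shfm1 (Sem1), named after its values were seen, was among those that fell. Its symbol lies outside the subunit rule, so it was not counted with the cap or lid genes. It averaged 78.0 ± 13.7 CPM in co-culture and 104 ± 7.03 CPM in untreated libraries (log2 fold change -0.41, edgeR adjusted p = 0.0076). Its values under the alternatives were not examined. Uchl5, a deubiquitinase of the cap, averaged 14.6 ± 1.17 CPM in co-culture and 11.6 ± 0.894 CPM in untreated libraries (log2 fold change 0.34, edgeR adjusted p = 0.0062), and Zfand2a, a stress-induced cap-binding protein, 53.8 ± 3.84 CPM in co-culture and 67.7 ± 5.68 CPM in untreated libraries (log2 fold change -0.33, edgeR adjusted p = 0.0025).

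Of 7 regulators of subunit genes, 1 rose and 1 fell (median log2 fold change 0.08). That is 28.6% called in either direction, against 33.5% of all genes tested. Nfe2l1 had 211 ± 47.0 CPM in co-culture libraries and 200 ± 28.9 CPM in untreated libraries (SD, n = 5 each), with a log2 fold change of 0.08 and an edgeR adjusted p of 0.6995. Nfe2l2, which raises subunit genes under oxidative stress, had 153 ± 3.02 CPM in co-culture and 184 ± 10.3 CPM in untreated libraries (log2 fold change -0.26, edgeR adjusted p = 0.0006), and Nfya, a subunit of NF-Y, 54.2 ± 3.05 CPM in co-culture and 44.3 ± 3.63 CPM in untreated libraries (log2 fold change 0.29, edgeR adjusted p = 0.0047). Of 12 ubiquitin and shuttle genes, 1 rose and 4 fell (median 0.02). In either direction 41.7% were called, against 33.5% of all genes tested. Rps27a, a ubiquitin and ribosomal protein fusion, had 75.8 ± 5.89 CPM in co-culture libraries and 100.2 ± 3.86 CPM in untreated libraries (log2 fold change -0.40, edgeR adjusted p = 0.0001), and Ubqln4, a shuttle protein, 149 ± 7.40 CPM in co-culture libraries and 128 ± 7.62 CPM in untreated libraries (log2 fold change 0.22, edgeR adjusted p = 0.0059).

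**Figure D5:**
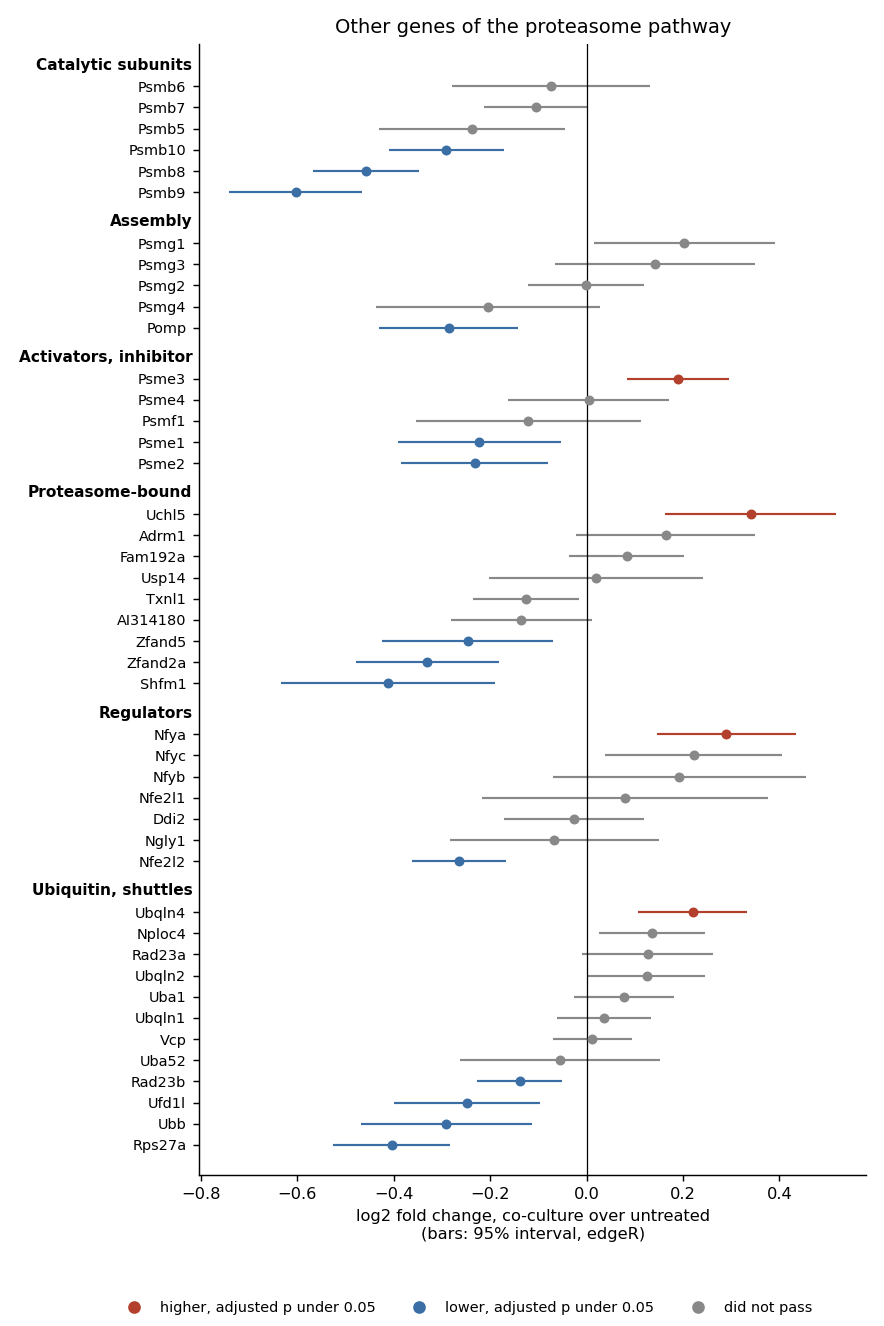
The log2 fold change, co-culture over untreated, of the other genes of the proteasome pathway is plotted with its 95% interval from edgeR, by list; colours mark genes that passed an adjusted p of 0.05. Psmb9 and Psmb8 lie furthest left at -0.60 and -0.46, and Uchl5 furthest right at 0.34.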

How the data were processed

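RNA of 10 libraries of Hepa1-6 cells (5 co-culture, 5 untreated) was sequenced; per the labels' protocols 1.3 ug of total RNA went into a VAHTS Universal V6 preparation. RSEM 1.2.8, Bowtie2 2.2.5, HISAT2 2.1.0 and mm10 stand in the submitters' processing notes, without roles. Strand use and annotation were not given in the sources used here. Counts as deposited are whole numbers per gene with no normalization, per the file headers. The deposited FPKM divide the same counts by 1 fixed length per gene and the library total, which was checked over 9379 genes.

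Counts were filtered with filterByExpr, scaled by TMM and tested with edgeR 4.0.16 (R 4.3.3, quasi-likelihood, two-sided, Benjamini-Hochberg over 12666 genes). Alternatives used limma 3.58.1, DESeq2 1.42.0, other scalings and filters, log2(FPKM + 1), offsets for transcript length and GC, and leaving out each library. The fit was tested on simulated data. Near-identical copies (at least 95% identity over 200 bases) were found with BLAST 2.17.0. Genes were named by rule: library values for the 4 largest called changes in each direction and the smallest p of each structural list, and the 2 smallest p of each other list. Subunits and lists were chosen with earlier results of these data known. Paaf1 was not analysed here, and 1 listed gene is not reported here. The symbols Shfm1, AI314180, Fam192a and Ufd1l stand for Sem1, Ecpas, Psme3ip1 and Ufd1.

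Nothing in the labels says that libraries of a group came from separate cultures, and the p-values therefore cover only how these libraries spread, which may be technical. Within groups, the 20 pairs of libraries differed beyond sampling noise (chi-square per degree of freedom 6.67 to 15.1). Tested subunit genes had 2901 to 44527 counts per group.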

Additional observations from a re-analysis of the deposited data

Results flagged for a closer look

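Among 96 groups of 5 libraries, 5 had a library whose gap to its nearest neighbour exceeded 0.71 of the group's range, Dixon's limit for 5 values; chance gives about 1 in 20. Psma2 was at 153 CPM in co-culture library 5, where the other co-culture libraries had 191 to 204 CPM. Psmd13 was at 143 CPM in co-culture library 2, against 127 to 131 CPM in the others of its group. Psmb1 was at 547 CPM in untreated library 4, against 507 to 518 CPM in the others. Nfya was at 49 CPM in co-culture library 2, below 54.6 to 56.8 CPM in its group, and at 50.6 CPM in untreated library 2, above 41.5 to 43.9 CPM in its group.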

How the results depend on the processing

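The counts of subunit genes depended on the scaling. With library totals alone, and with limma on log2(FPKM + 1) or log2(FPKM + 0.1), 5 were higher and 3 lower, against 2 and 5 in the edgeR fit; Psmd1, Psmd7 and Psmd13 joined the higher ones and Psma2 and Psma4 left the lower ones. With offsets for length and GC content, chosen after seeing the data, 4 were higher and 7 lower, and 4 of those 7 were cap genes (Psmc2, Psmd4, Psmd8 and Psmd11). With upper quartile or RLE scaling, DESeq2, or a mean of at least 1 CPM, 2 were higher and 6 lower, with Psmc2 joining the lower ones. Leaving out each library in turn gave 2 to 2 higher and 3 to 9 lower; there were 9 lower without co-culture library 2, and 3 without co-culture library 5 or untreated library 4. With the replicate block 2 were higher and 5 lower. The numbers were not taken as pairs, because no label says that same-numbered libraries share a culture. Same-numbered libraries also did not deviate together (correlations -0.139 to 0.0548).

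Psmb3, Psmb1, Psma5, Psmd2 and Psmc4 passed under all 23 alternatives; Psma2 failed in 9 and Psma4 in 8. Of 1104 values of the 48 genes named or listed, 1039 kept their side of the threshold and their direction where called, 23 lost the call, 42 gained one and 0 reversed; 63 uncalled estimates changed sign. At these depths the uncalled subunit genes' intervals allow log2 changes of up to -0.34 or 0.23.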
